A study of Mus musculus with 12 samples.

Results

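The mitochondrial ribosome carries its own set of proteins, all of them encoded in the nucleus, and these are the subject here. Their genes were taken as every gene whose symbol begins with Mrpl or Mrps followed by a number and whose probeset carries that symbol alone in the array annotation. This gave 71 genes of 22180 named genes on the array. Where a gene had more than 1 probeset, the probeset with the highest mean log2 intensity over all arrays stood for it. The rule for the symbols uses the name and no measured value, though the genes were chosen with earlier results of these data known. A further 7 such symbols (Mrpl30, Mrpl33, Mrpl41, Mrpl43, Mrpl44, Mrpl53 and Mrps6) occurred only in probesets shared with another gene and are not among the 71.

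Mitochondria translate a small number of messages, all for subunits of the respiratory chain and ATP synthase, on ribosomes that differ from those of the cytosol. The small subunit reads the message and the large subunit forms the peptide bond and guides the new chain out at the inner membrane. Many of the proteins have a counterpart in bacterial ribosomes, while others are found only in mitochondria. NAC neurons depend on oxidative phosphorylation for firing and synaptic transmission, as do neurons in general.

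NAC tissue, with both core and shell, was micropunched from adult female mice of the outbred hsd:ICR strain. The postpartum group (maternal in the labels) held 6 mice that had mated and given birth, with litters set to 11 pups, collected on postpartum day 7 while lactating. The virgin group held 6 age-matched females that had lived with other females during the mating period, and all were in diestrus. After mating, the females of both groups were housed singly until birth. Housing with males, mating, pregnancy, birth, nursing and pup contact all separate the groups, so their parts cannot be told apart. Every mouse had an array to itself (GeneChip Mouse Gene 2.0 ST), which makes the mouse the unit of replication.

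The values are PLIER intensities, a normalized brightness per probeset on a linear scale. They were converted to log2 and compared with limma, and a gene is said to have risen or fallen where its unadjusted limma p was under 0.01, the cutoff of the study. Fold changes are postpartum over virgin throughout. A permutation p beside the limma p comes from an exact two-sided test on log2 values that enumerates every way to split 12 arrays into 6 and 6, and it cannot go under 0.00216. The number of arrays limits the precision. Array medians lay between 153 and 164.98, and the Spearman correlation between arrays was nowhere below 0.976. No probeset passed an adjusted p of 0.05 by limma on log2 intensities, the lowest being 0.106, while 10 probesets did on linear intensities. Of 10 markers of striatal projection neurons 8 were measured, with mean intensities from 448.5 to 6719. All 8 were lower in the postpartum group, with 1 called (Rgs9, log2 fold change -0.26) and the summed intensity from 16380 to 22540 against 20560 to 24600 in virgins. The 5 measured markers of cortical glutamatergic neurons all had a higher mean, with no call, and their sums ranged from 5811 to 10240 against 5656 to 8571. The 7 astrocyte markers were likewise all higher in mean with none called. Of 6 oligodendrocyte markers 5 were lower and 1 was called (Opalin, log2 fold change -0.47), with sums from 6540 to 9123 against 6851 to 8872. No marker of microglia (3 of 6 higher), endothelium (4 of 6) or choroid plexus and ependyma (2 of 6) was called. In bulk tissue, fewer cells of a type and less RNA per cell cannot be told apart, and the part of cell makeup in the results on mitochondrial ribosomal proteins was not tested.

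Few mitochondrial ribosomal protein genes changed singly in postpartum NAC. On the log2 scale 1 of 71 rose, Mrpl42, and 1 fell, Mrpl55. Among all 22180 named genes, 2.8% passed the same cutoff on log2, 1.72% as higher and 1.08% as lower. On this scale 2 of 71 is thus a share near the background. At p under 0.03, the second cutoff of the study, 6 were higher (Mrpl12, Mrpl13, Mrpl21, Mrpl36, Mrpl42 and Mrpl54) and 1 lower, against a background of 3.68% higher and 2.89% lower. None of the 71 reached an adjusted p of 0.05 by limma, on log2 or on linear intensities. At an unadjusted p under 0.05 there were 8 of 71, 7 higher and 1 lower, against a background of 5.22% higher and 4.7% lower. The methods of the study do not name the scale of its test. They do give fold change as the maternal limma coefficient divided by the virgin one, a ratio that goes with linear intensities. Log2 is the main scale here, so calls on log2 need not be those of the study. On linear intensities 6 rose (Mrpl12, Mrpl13, Mrpl21, Mrpl36, Mrpl42 and Mrpl51) and Mrpl55 fell, against 2.94% higher and 1.25% lower over all named genes. All 7 of those genes encode large subunit proteins.

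The differences were small and most of them pointed the same way. Of the 71 genes, 55 (77.5%) had a higher mean log2 intensity in the postpartum group, against 47.9% of all named genes, 55.6% of the 13309 named genes above the median intensity of all probesets, and 49.6% of named genes within the brightness range of the 71. The median log2 fold change was 0.058, with quartiles of 0.004 and 0.103 and a range from -0.16 to 0.25. The median over all named genes was -0.005. In 18 genes the virgin median was exceeded by all 6 postpartum arrays, and in 2 (Mrpl55 and Mrps28) by none. No share over all named genes was taken for these counts, so they have no background beside them. All these shares and counts are descriptions, since genes measured on the same arrays are not independent of each other.

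**Figure D1:**
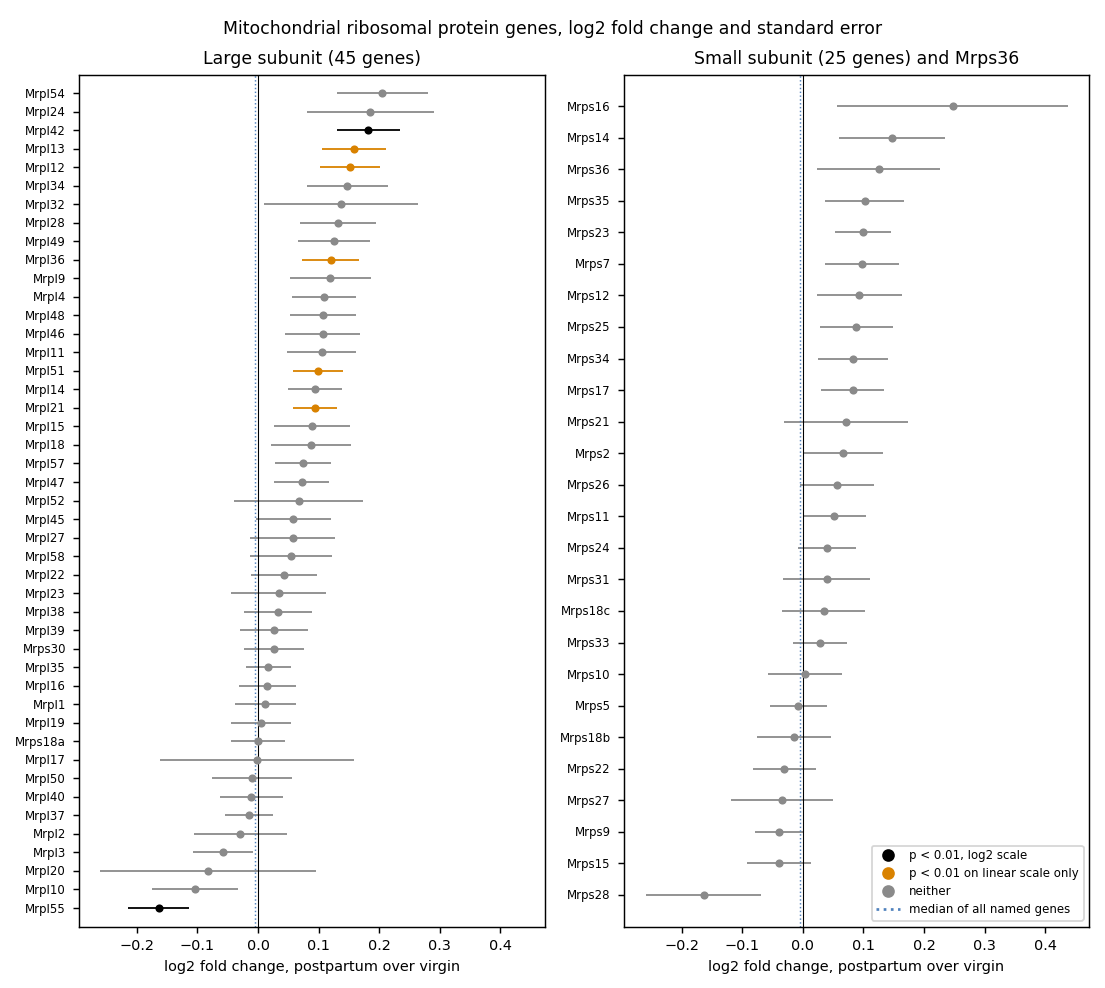
Log2 fold change, postpartum over virgin, of each of the 71 mitochondrial ribosomal protein genes (points) with its standard error (bars), for the 45 genes of the large subunit on the left and for the 25 of the small subunit with Mrps36 on the right. Most points lie to the right of 0, and the called genes, in black for log2 and orange for linear intensities alone, are all on the left panel.

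A single virgin mouse bore on this pattern. The 71 genes were set against their own means over the 12 arrays, and the median deviation was taken for each array. It ranged from -0.01 to 0.06 in the postpartum group and from -0.15 to 0.04 in the virgin group, so the groups overlapped. Virgin replicate 5 held the lowest value, and in it only 10 of the 71 genes were above their own mean. In the same array the cytosolic ribosomal proteins also had a median deviation of -0.15 and the nuclear genes of oxidative phosphorylation one of -0.10, while all named genes stood at 0.00. That array also had the highest median intensity, 164.98. Without virgin replicate 5, 47 of 71 genes (66.2%) were higher in the postpartum group, and their median log2 fold change was 0.030. The share was 47.9% for all named genes and 52.7% for named genes above the median intensity of all probesets. Without it no mitochondrial ribosomal gene passed the cutoff as higher, Mrpl42 being just short of it at a log2 fold change of 0.16, and 2 passed it as lower, Mrpl55 and Mrps28. The shares of all named genes were then 1.21% higher and 0.757% lower.

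**Figure D2:**
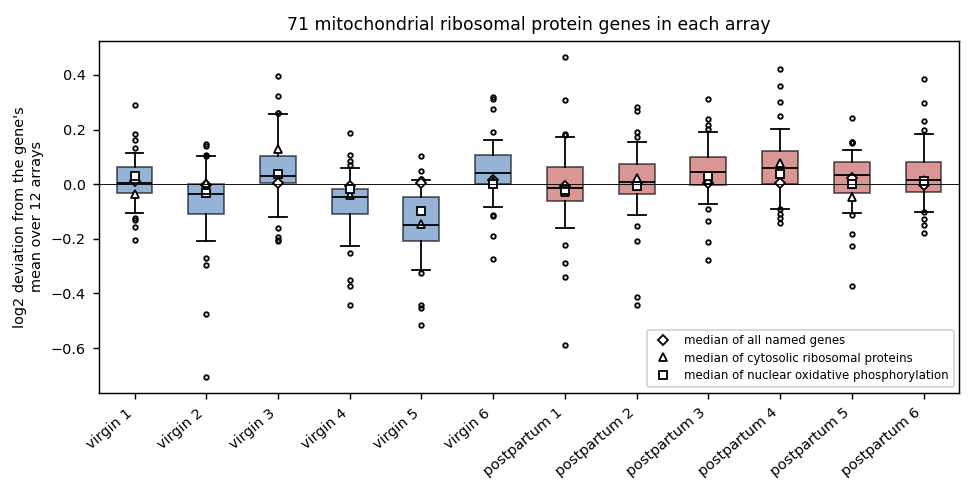
Log2 deviation of each of the 71 genes from its own mean over 12 arrays, as 1 box per array (line, median; box, quartiles; whiskers, 5th to 95th percentile; circles, genes beyond), virgin arrays in blue and postpartum arrays in red. Open symbols give the median of all named genes, of cytosolic ribosomal proteins and of nuclear oxidative phosphorylation genes. The median of virgin 5 is the lowest at -0.15, and the other 5 virgin arrays lie between -0.05 and 0.04.

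The scaling of the arrays changed the median of the 71 genes, and the median of all named genes also changed. With each array centred on its own median, 63 of 71 genes (88.7%) were higher in the postpartum group and their median was 0.092. The median of all named genes then stood at 0.029 and 61% of them were higher. So were 70% of named genes above the median intensity, 85.2% of nuclear oxidative phosphorylation genes and 75.4% of cytosolic ribosomal protein genes. The medians of these 3 lists were 0.045, 0.049 and 0.041. After quantile normalization 51 of 71 were higher (71.8%), with a median of 0.051, against 49.9% of all named genes with a median of 0. The shares of the same 3 lists were then 53%, 59.3% and 49.2%.

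Most genes of both subunits had a higher mean in the postpartum group, and 2 of 45 large subunit and none of 25 small subunit genes were called, beside 2.8% of all named genes. Of 45 large subunit genes 36 had a higher mean in the postpartum group, with a median log2 fold change of 0.067, and of 25 small subunit genes 18 did, with a median of 0.052. None of the small subunit genes passed p under 0.01, nor p under 0.05, by limma on log2 intensities or, at p under 0.01, on linear intensities. The difference between the subunits was not tested. Proteins with a bacterial counterpart (33 of 43 higher, median 0.066) and proteins found only in mitochondria (21 of 27 higher, median 0.056) had near values. Mrps36, which was named with the ribosome and is now placed in the oxoglutarate dehydrogenase complex, belongs to neither group.

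The called gene that rose was Mrpl42, a protein of the large subunit found only in mitochondria. In postpartum mice its intensity ran from a lowest value of 1889 through a median of 2055 to a highest of 2082, and in virgin mice from 1641 through 1813 to 1936. Of the 6 postpartum arrays 5 were above every virgin array, and the lowest postpartum array was below the highest virgin array. The log2 fold change was 0.18 with a standard error (SE) of 0.05 (limma p = 0.0046, adjusted p = 0.379, permutation p = 0.00433, n = 6 per group). Leaving out single arrays kept the log2 fold change between 0.16 and 0.21, and p was under 0.01 in 6 of the 12 repeats.

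Mrpl55, whose protein is a counterpart of a bacterial large subunit protein, was the gene that fell. Its intensity ran from 341.8 through 357.6 to 387.9 in postpartum mice and from 382.6 through 399.7 to 432.4 in virgin mice. All but a single postpartum array lay below every virgin array. The log2 fold change was -0.16 (SE 0.05, limma p = 0.0066, adjusted p = 0.398, permutation p = 0.00433). The call held in 5 of the 12 repeats with an array left out, and was lost when arrays were centred on their median.

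The bases just before the annotated start of these 2 genes are shown because they are the genes with calls of opposite direction. They were searched on both strands for the cores of 3 factors known for binding promoters of nuclear genes for mitochondria: GCATGCGC for NRF1, CCGGAAGT for GABP and other ETS factors, and AAGATGGC for YY1. None of the 3 cores occurs in either stretch, so all letters are in lower case. Both stretches are 150 bases, from RefSeq on build GRCm38.p6, Mrpl42 at chr10:95501950-95502099 on the minus strand and Mrpl55 at chr11:59202336-59202485 on the plus strand.
Mrpl42: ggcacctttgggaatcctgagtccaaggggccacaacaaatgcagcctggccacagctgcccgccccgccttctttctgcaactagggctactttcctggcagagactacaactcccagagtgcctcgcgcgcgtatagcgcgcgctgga
Mrpl55: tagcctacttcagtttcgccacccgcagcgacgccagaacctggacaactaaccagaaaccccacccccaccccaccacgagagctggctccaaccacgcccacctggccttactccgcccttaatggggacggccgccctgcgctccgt
Mrpl42 does hold the YY1 core in the 50 bases after its start, and Mrpl55 holds none of the cores there either.

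Mrpl12 and Mrpl21 were the only genes of the 71 whose groups did not overlap, both higher in the postpartum group. Over all named genes, 0.794% were separated with postpartum higher and 0.271% with postpartum lower. The Mrpl12 protein sits in the flexible stalk of the large subunit, where translation factors dock. Its intensity ran from 361.7 through 377.6 to 412.9 in postpartum mice and from 310.9 through 344.6 to 361.1 in virgin mice. The gap between the groups was thus under 1 unit of intensity. The log2 fold change was 0.15 (SE 0.05, limma p = 0.0105, permutation p = 0.00216), just short of the cutoff on log2 and past it on linear intensities (p = 0.0037). A second, dimmer probeset of Mrpl12 had a log2 fold change of -0.07 (permutation p = 0.323), so the 2 probesets of this gene differed in sign.

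Mrpl21, a counterpart of a bacterial large subunit protein, had the least spread within groups of all 71 genes, with a residual SD of 0.036 on the log2 scale. Its intensity ran from 309.3 through 316.2 to 323.3 in postpartum mice and from 280.9 through 298.1 to 305.9 in virgin mice. The log2 fold change was 0.09 (SE 0.04, limma p = 0.0244, permutation p = 0.00216), and on linear intensities p was 0.00142. Next to it is Ighmbp2, a helicase gene whose annotated start lies 32 bases from its own on the other strand and whose gene model overlaps it. The short stretch between the starts is shown as the closest pair with a gene of the 71 that passed the cutoff on linear intensities. It lies at chr19:3283011-3283041 on GRCm38.p6, read along the strand of Mrpl21 (plus), and holds none of the 3 cores.
Mrpl21 and Ighmbp2: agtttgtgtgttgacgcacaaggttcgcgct
The intensity of Ighmbp2 was 264.2 ± 16.8 (SD, n = 6) in postpartum and 283.7 ± 18.6 (SD, n = 6) in virgin mice, a log2 fold change of -0.10 (permutation p = 0.0823), so the differences of these neighbours lay on opposite sides of 0.

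**Figure D3:**
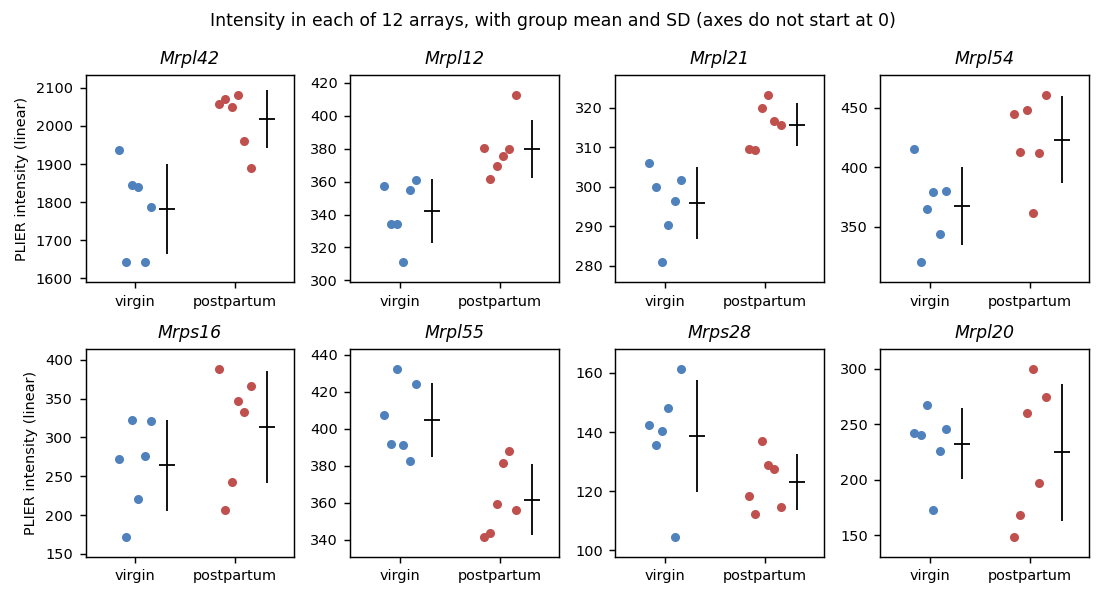
PLIER intensity (linear scale, axes not starting at 0) of 8 mitochondrial ribosomal protein genes in each virgin (blue) and postpartum (red) mouse, with the group mean and SD as black bars. Mrpl12 and Mrpl21 are separated between groups, Mrpl42 and Mrpl55 overlap by the values of single arrays, and Mrps16 and Mrpl20 spread widely within each group.

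A further 3 large subunit genes passed the cutoff on linear intensities alone. Mrpl13, a counterpart of a bacterial protein, ran from 277.4 through 303.9 to 317.7 in postpartum and from 246.8 through 274.8 to 287.7 in virgin mice, a log2 fold change of 0.16 (SE 0.05, limma p = 0.0113, permutation p = 0.00649). Mrpl36, the counterpart of a small zinc-binding protein of the bacterial ribosome, ran from 377.8 through 409.9 to 433.4 against 353 through 374.6 to 396.7, a log2 fold change of 0.12 (SE 0.05, limma p = 0.0256, permutation p = 0.0173). Its second, dimmer probeset had a log2 fold change of 0.01 (permutation p = 0.855), and the mean of both probesets one of 0.07. Mrpl51, found only in mitochondria, ran from 764.9 through 795.7 to 836.6 against 698.5 through 753.8 to 776.5, a log2 fold change of 0.10 (SE 0.04, limma p = 0.0362, permutation p = 0.00433). In each of the 3 the virgin median was exceeded by all postpartum arrays, while the groups overlapped. Mrpl51 has a neighbour on the other strand in Ncapd2, a condensin gene whose start lies 614 bases away, and Ncapd2 had the same mean intensity in both groups (241.4 ± 13.9 and 241.4 ± 12.7, SD, n = 6).

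The 150 bases before the starts of Mrpl36 and Mrpl51 are shown because each holds a core, written in capitals. In Mrpl36 (chr13:73330859-73331008, plus strand) it is the YY1 core on the opposite strand, beginning 30 bases before the start. In Mrpl51 (chr6:125192050-125192199, plus strand) it is the ETS core, beginning 90 bases before the start.
Mrpl36: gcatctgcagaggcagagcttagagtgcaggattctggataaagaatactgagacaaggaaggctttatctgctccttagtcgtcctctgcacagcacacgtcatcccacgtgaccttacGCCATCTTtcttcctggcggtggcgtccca
Mrpl51: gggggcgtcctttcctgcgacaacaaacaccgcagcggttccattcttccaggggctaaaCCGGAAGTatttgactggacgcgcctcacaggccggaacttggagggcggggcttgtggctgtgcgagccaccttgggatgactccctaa
A match of letters is a description of the stretch and does not show that a factor binds there.

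The largest differences among the uncalled genes came with wider spread. Mrps16, a small subunit protein with a bacterial counterpart whose loss causes a respiratory chain disease in people, had the largest log2 fold change of the 71, 0.25 (SE 0.19, limma p = 0.221, permutation p = 0.255). Its intensity ran from 206.8 through 339.2 to 388.1 in postpartum and from 172.2 through 273.7 to 322.1 in virgin mice, the widest spread within groups of all 71 genes (residual SD 0.356 on the log2 scale). Without virgin replicate 2 the log2 fold change was 0.13. Its second, dimmer probeset had a log2 fold change of -0.01. Mrpl54, found only in mitochondria, ran from 361.1 through 428.7 to 461 against 319.9 through 371.8 to 415.5, with a log2 fold change of 0.20 (SE 0.07, limma p = 0.0185, permutation p = 0.0281). Mrpl24, a counterpart of a bacterial protein, ran from 491.3 through 528.7 to 594.3 against 352.4 through 485.9 to 565, with a log2 fold change of 0.18 (SE 0.10, limma p = 0.104, permutation p = 0.113). Its lowest virgin value came from virgin replicate 5, without which the log2 fold change was 0.10. The gene model of Mrpl24 overlaps Rrnad1, and which of them the probes match was not checked.

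On the lower side, Mrps28, a small subunit protein with a bacterial counterpart, had the same log2 fold change as Mrpl55, -0.16, with a larger SE of 0.10 (limma p = 0.11, permutation p = 0.123). Its intensity ran from 112.4 through 122.8 to 136.9 in postpartum and from 104.6 through 141.3 to 161.4 in virgin mice. Virgin replicate 5 was the lowest of all 12 arrays and the other 5 virgin arrays were at 135.7 or above. Without that array the log2 fold change was -0.24 and past the cutoff of limma. Mrpl20 ran from 148.7 through 228.7 to 299.8 against 173 through 241 to 267.5, with a log2 fold change of -0.08 (SE 0.18, permutation p = 0.662), and the sign turned to 0.03 without postpartum replicate 1.

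Mrpl10, the protein that anchors Mrpl12 to the large subunit, ran from 1274 through 1488 to 1745 in postpartum and from 1528 through 1598 to 1733 in virgin mice. Its log2 fold change was -0.10 (SE 0.07, limma p = 0.168, permutation p = 0.165), and -0.06 without postpartum replicate 1. A second, dimmer probeset was at -0.01 (permutation p = 0.942). Of the postpartum arrays 4 were below every virgin array and 1 was above every virgin array. Its stretch before the start (chr11:97041432-97041581, plus strand) is shown as the example with the NRF1 core, in capitals, beginning 134 bases before the start.
Mrpl10: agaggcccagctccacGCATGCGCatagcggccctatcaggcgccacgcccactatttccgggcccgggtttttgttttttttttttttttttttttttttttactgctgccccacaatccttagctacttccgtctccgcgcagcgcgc
Mrpl10 is also among the 3 genes with the brightest probesets, with Mrpl42 and Mrps21. Mrps21 had a log2 fold change of 0.07 (permutation p = 0.511), and of 0.01 without virgin replicate 5. The 3 with the dimmest probesets were Mrpl27 (log2 fold change 0.06, permutation p = 0.485), Mrps36 (0.12, permutation p = 0.292) and Mrps28. The value of Mrpl27 was 0.002 without postpartum replicate 1, and that of Mrps36 was 0.04 without virgin replicate 2. Intensities of the 71 genes ran from 66.1 to 2082 and none was at the floor of 1 in any array. Brightness depends on the probes, so these values do not rank the genes by RNA.

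Within groups most pairs of these genes were positively correlated from mouse to mouse. Over 2485 pairs of the 71 genes, the median Pearson r of deviations from the group means was 0.31 over 12 arrays, with quartiles of 0.04 and 0.52. The median was 0.26 within the small subunit, 0.34 within the large subunit and 0.29 between them. All pairs share the same arrays and their scaling. Mrpl32 (median r with the other genes 0.55), Mrpl50 (0.54), Mrpl39 (0.53) and Mrpl52 (0.53) followed the rest most closely, and Mrpl27 (-0.27), Mrpl46 (-0.17) and Mrpl40 (-0.15) ran against it. Virgin replicate 5, whose median deviation was -0.15, was the lowest of the 12 arrays in each of the genes that followed most closely. It was not the lowest in Mrpl27, Mrpl46 or Mrpl40. How far the correlations rest on that array was not tested.

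Probesets that the annotation gives to several genes include 13 with a mitochondrial ribosomal protein gene, and they were kept apart since their signal cannot be attributed. The probeset of Mrps6 and Slc5a3 had the largest difference of them. Slc5a3, a sodium-dependent inositol transporter gene, overlaps the gene model of Mrps6, a small subunit protein. The intensity ran from 745.3 through 793.4 to 811.2 in postpartum and from 634.5 through 654.9 to 702.3 in virgin mice, with no overlap. The log2 fold change was 0.25 (SE 0.04, limma p = 4.34e-05, adjusted p = 0.106, permutation p = 0.00216). Across all alternative settings and left-out arrays its unadjusted p stayed between 1.33e-06 and 0.00132. Its adjusted p by limma was 0.0259 on linear intensities and ran from 0.0241 to 0.593 over the alternatives, the highest with replicate numbers as blocks. The probeset of Babam2 and Mrpl33 had a log2 fold change of -0.11 (SE 0.04, limma p = 0.0203, permutation p = 0.00649) and passed the cutoff on linear intensities, and a different probeset of Mrpl33, shared with Gm38424, one of 0.07 (permutation p = 0.102). None of the other shared probesets passed p under 0.05 by limma.

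Other genes of mitochondrial translation gave a few calls. Of 13 measured translation factors 2 rose by limma, beside 1.72% of all named genes. A higher postpartum mean was found in 9 of the 13 (69.2%), with a median log2 fold change of 0.069. Mrrf, the factor that recycles ribosomes after a chain is finished, ran from 939.4 through 979.2 to 1029 in postpartum and from 853.7 through 881.5 to 927.4 in virgin mice, with no overlap, a log2 fold change of 0.15 (SE 0.04, limma p = 0.0026, permutation p = 0.00216). Tufm, the elongation factor that brings charged tRNA to the ribosome, ran from 1309 through 1387 to 1422 against 1183 through 1242 to 1349, a log2 fold change of 0.14 (SE 0.04, limma p = 0.00735, permutation p = 0.00433). The Tufm call was lost in 9 of the 12 repeats with an array left out, and the Mrrf call in none of them.

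Of 21 measured mitochondrial tRNA synthetases 1 fell, beside 1.08% of all named genes. It was Pars2, which charges proline tRNA. Postpartum intensities ran from 194.9 through 234 to 242.8 and virgin ones from 259.1 through 274.6 to 284.2, with no overlap, and the log2 fold change was -0.28 (SE 0.06, limma p = 0.000857, adjusted p = 0.286, permutation p = 0.00216). The median over the synthetases was 0.03, with 14 of 21 higher, so Pars2 went against most of its list.

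The remaining lists had no call at p under 0.01 by limma on log2 intensities. Of 27 assembly factors of the mitochondrial ribosome none passed, with 1 higher and 1 lower at p under 0.05. Of 14 genes for mitochondrial DNA upkeep and transcription none passed at either level. A higher postpartum mean was found in 11 of these 14 (78.6%, median log2 fold change 0.009) and in 16 of the 27 assembly factors (59.3%, median 0.01). Of 3 measured mitochondrial ribosomal proteins with other names, Dap3, a small subunit protein also linked to cell death, was nearest (log2 fold change 0.15, limma p = 0.0345, permutation p = 0.0368). Of 10 regulators 6 were lower and none passed p under 0.01. Among them Gabpa, the DNA-binding chain of GABP, had a log2 fold change of 0.13 (limma p = 0.0295, permutation p = 0.0152), Nrf1 one of -0.03 (permutation p = 0.253), turning to 0.001 with arrays centred on their median, and Yy1 one of -0.04 (permutation p = 0.461). Ppargc1b, a coactivator of genes for mitochondria, was lower with a log2 fold change of -0.10 (limma p = 0.0322, permutation p = 0.00866), and past the cutoff on linear intensities.

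The products of these ribosomes join nuclear subunits in the respiratory chain. Of 81 nuclear genes of oxidative phosphorylation 50 were higher in the postpartum group, with a median log2 fold change of 0.015, 2 risen and none fallen. Of 65 cytosolic ribosomal protein genes 36 were higher, with a median of 0.008, 1 risen and none fallen. The risen shares, 2.47% and 1.54%, were near the 1.72% of all named genes, of which 1.08% fell. Both medians lay closer to that of all named genes (-0.005) than the 0.058 of the mitochondrial ribosomal genes did. Without virgin replicate 5 the positive shares were 50.6% for oxidative phosphorylation and 38.5% for cytosolic ribosomal proteins, against 66.2% for the mitochondrial ribosomal genes. With arrays centred on their median the shares lay closer together, at 85.2% and 75.4% against 88.7%. The differences between the lists were not tested.

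**Figure D4:**
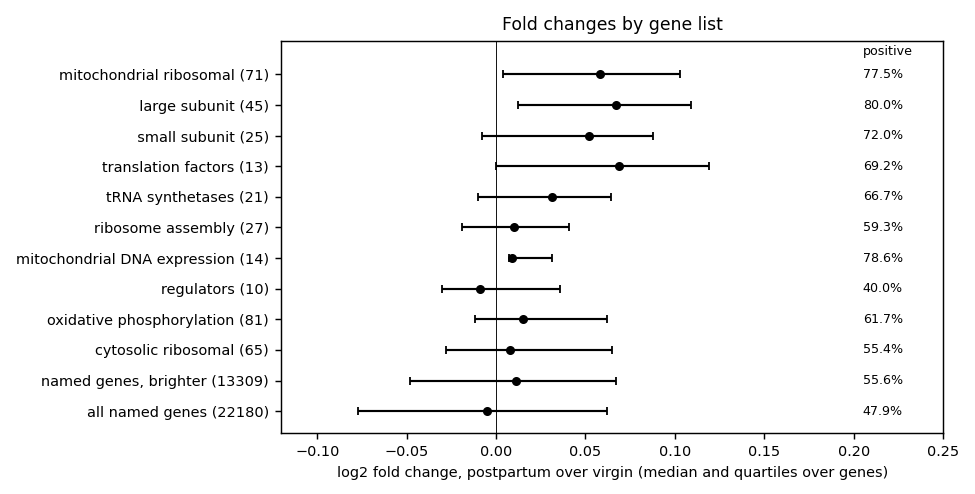
Median log2 fold change, postpartum over virgin (points), with the quartiles over genes (bars), of the mitochondrial ribosomal protein genes, their subunits, other gene lists and all named genes, with the number of genes in parentheses and the percent of genes with a positive difference at the right. Mitochondrial ribosomal genes have a median of 0.058 and 77.5% positive, and all named genes -0.005 and 47.9%.

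Some promoter features were more frequent among the mitochondrial ribosomal genes than among all protein-coding genes, with no test. Promoter windows of 300 bases, 250 before and 50 after the annotated start, were at hand for 62 of the 71 genes (68 windows) and for 21263 windows of protein-coding genes in all. The YY1 core was in 17.6% of the windows of mitochondrial ribosomal genes and in 3.05% of all windows. In 8 windows of mitochondrial ribosomal genes the YY1 core began at or after the start, and in 4 before it. Over all 21263 windows these counts were 319 and 340. The ETS core was in 14.7% against 5.15%, and the NRF1 core in 10.3% against 3.52%. At least 1 of the 3 cores was in 39.7% against 11% of windows, so most windows of these genes held none. The median GC content of the 250 bases before the start was 58.4% against 55.6%.

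Genes with and without the YY1 or ETS core had near median differences between groups, and the few with the NRF1 core had a lower one. The median log2 fold change was 0.07 for the 12 genes with the YY1 core and 0.06 for the 50 without it, 0.06 for both the 10 genes with and the 52 without the ETS core, and 0.03 for the 7 genes with the NRF1 core and 0.06 for the 55 without. A higher postpartum mean was found in 9 of 12 genes with the YY1 core, 7 of 10 with the ETS core and 4 of 7 with the NRF1 core. Without the core the counts were 37 of 50, 39 of 52 and 42 of 55. These are descriptions with no test. The motifs and their letters were chosen after the expression values had been seen.

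Many of these genes start close to a gene on the opposite strand. Of the 62 genes 21 (33.9%) had such a start within 1000 bases, with both genes running away from it, against 8.5% of 17492 protein-coding genes. Mrps11 and Mrpl46, of the small and large subunit, are such a pair, with starts 42 bases apart. The bases between them (chr7:78783090-78783130 on GRCm38.p6, read along the plus strand, that of Mrps11) hold none of the 3 cores and are shown as the case where both genes of a pair encode mitochondrial ribosomal proteins.
Mrps11 and Mrpl46: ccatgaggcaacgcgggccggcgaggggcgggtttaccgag
The log2 fold changes of this pair were 0.05 (permutation p = 0.305) and 0.11 (permutation p = 0.102). Of the partners of the 21 genes only Zfp189, opposite Mrpl50, passed the cutoff by limma, at 668.6 ± 88.9 (SD, n = 6) in postpartum and 499.9 ± 40.4 (SD, n = 6) in virgin mice (log2 fold change 0.41, limma p = 0.000542, permutation p = 0.00216). Mrpl50 itself had a log2 fold change of -0.01 (permutation p = 0.877), and 0.02 with arrays centred on their median.

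**Figure D5:**
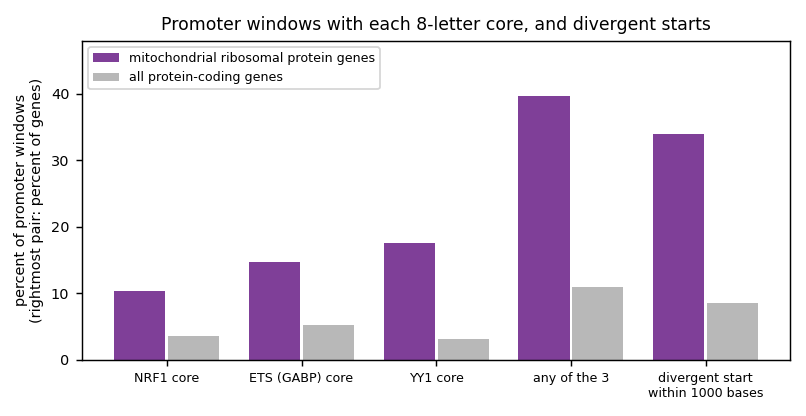
Percent of 300-base promoter windows that hold each 8-letter core on either strand, and percent of genes with a start on the other strand within 1000 bases running away from it, for mitochondrial ribosomal protein genes (purple) and all protein-coding genes (grey). The purple bar is the higher of each pair, with 39.7% against 11% for any of the 3 cores and 33.9% against 8.5% for paired starts.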

How the data were processed

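There were 12 arrays, 6 per group, and groups and replicate numbers came from the labels. The authors summarized and normalized the scanned arrays with PLIER (Affymetrix Power Tools 1.12.0 is listed in the submitters' processing notes). They deposited 1 linear intensity per probeset and array for 41345 probesets. The log2 of each intensity, with values under 1 set to 1, was fitted for all probesets in R 4.3.3 by limma 3.58.1, using lmFit and eBayes with no trend and Benjamini-Hochberg adjustment over all probesets. The script was tested on simulated data. Exact two-sided permutation tests used all 924 splits of the arrays, so p cannot be under 0.00216. Promoter windows are RefSeq sequences on GRCm38.p6 and were searched in Python 3.11.15.

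The genes and gene lists were chosen with earlier results of these data known. Named are genes called on log2 or linear intensities, genes with separated groups, the 3 uncalled genes with the largest positive and the 3 with the largest negative difference, the 3 brightest and 3 dimmest, called genes of the lists and near neighbours of called genes. Zfp189, Dap3, Gabpa, Nrf1, Yy1, Ppargc1b, the called markers, the Mrpl33 probesets and the genes named for their correlation were added after their values were seen. Alternatives were other scalings, filters, variance priors, weights, thresholds, probeset rules, replicate numbers as blocks and each array left out. Likeness to Mrps6 was not computed, since its probeset is shared. Probe-level data were not used here.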

Additional observations from a re-analysis of the deposited data

How the results depend on the processing

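The count of mitochondrial ribosomal genes past p under 0.01 was 2 and depended on the setting. It was 7 on linear intensities, 4 after quantile normalization, after centring arrays on their median or with probesets above the median only, 5 with array weights, 7 at p under 0.03 and 0 at an adjusted p under 0.05. It was 1 with the replicate block (Mrpl13). Between postpartum and virgin arrays of the same number, the r of deviations ran from -0.175 to 0.115. Whether the numbers stand for a shared collection day was not tested. With arrays left out the count ran from 0 to 3, being 0 without postpartum replicate 1, 2 or 3. An intensity trend gave 3. The median log2 fold change of 0.06 ran from 0.03 (without virgin replicate 5) to 0.08 with arrays left out and from 0.05 to 0.09 under the other settings, and the number of genes with a positive difference, 55, from 47 to 63 over all settings. Among the 35 genes and shared probesets named with a difference and refitted, 4 turned their sign in some setting. Mrpl20 (-0.08) ran from -0.176 to 0.027 with arrays left out and was positive without postpartum replicate 1. Mrpl50 (-0.01) ran from -0.051 to 0.028 with arrays left out and was 0.024 with arrays centred. Ncapd2 (-0.001) ran from -0.02 to 0.025 with arrays left out and was 0.033 with arrays centred, 0.017 after quantile normalization and 0.018 with array weights. Nrf1 (-0.03) was 0.001 with arrays centred. The causes were not tested. The intensities carry no counts, so the depth is unknown, and brightness over background sets what dim probesets such as Mrpl27 can show.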
